A study of Danio rerio with 12 samples.

Results

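The mitochondrial genome transcripts measured here were the rows of a gene count table from zebrafish embryos whose zebrafish symbol began with mt-. The rule found 13 of 32520 rows, which were the 13 protein-coding mRNAs of the mitochondrial genome. It used no measured value. The RefSeq gene table listed 37 mitochondrial genes, but 0 rRNA or tRNA rows carried an mt- symbol in the name table, so those genes were not analysed here. By the complex that their proteins join, the members were mt-nd1, mt-nd2, mt-nd3, mt-nd4, mt-nd4l, mt-nd5 and mt-nd6 of complex I (NADH dehydrogenase), mt-cyb of complex III, mt-co1, mt-co2 and mt-co3 of complex IV (cytochrome c oxidase), and mt-atp6 and mt-atp8 of complex V (ATP synthase). Complex II has no subunit encoded by the mitochondrial genome.

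The mitochondrial genome is a small circle present in many copies in each cell, and a dedicated polymerase transcribes it into long precursors from both strands. The tRNAs that punctuate the precursors are cut out, which releases the mRNAs and rRNAs. Levels of single mRNAs therefore depend on copy number, transcription, cleavage and decay, and the mitochondria of the early embryo are inherited from the egg. The respiratory chain also needs many nuclear-encoded subunits, and its electron carrier ubiquinone is reduced by the pyrimidine synthesis enzyme DHODH, the target of leflunomide.

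The libraries came from whole wild-type (TU) embryos at 10 h post fertilization (hpf), the tailbud stage. The 4 groups were control morpholino with DMSO, control morpholino with leflunomide, tif1γ morpholino with DMSO, and tif1γ morpholino with leflunomide, with 3 libraries in each group and 109 pooled embryos in each library. The tif1γ group received 1 ng of a morpholino that blocks the start codon of tif1γ (trim33), a chromatin factor needed for blood formation, and the controls 1 ng of the Standard Control oligo, at the 1- or 2-cell stage. Embryos were kept in 7 µM leflunomide or in the matching amount of DMSO from 5.3 to 10 hpf. Values are averages over whole embryos, in which fewer mitochondria or cells of a type and less RNA per mitochondrion or cell cannot be told apart.

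The 12 libraries of rRNA-depleted total RNA held 27574593 to 32088082 counts each. CPM values are counts relative to a library's total multiplied by its TMM factor, so they depend on that scaling. TMM sets libraries to a common level over most genes. Its factors ran from 0.9261 (control DMSO replicate 1) to 1.053 (control leflunomide replicate 2). The trim33 transcript was higher after the tif1γ morpholino in DMSO, at 380 against 74.9 CPM. Its log2 fold change was 2.34 ± 0.06 (SE, edgeR quasi-likelihood test, adjusted p = 4.98e-15). A morpholino at the start codon acts on translation, so this level does not check the knockdown. Libraries with the same replicate number deviated together across genes. A fit with the number as a block is printed below wherever it changed a call of a mitochondrial mRNA. For the gene lists it is printed in some comparisons only, and it also changed list counts that are not printed.

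All 13 mitochondrial mRNAs were well covered, with 989 to 112131 counts in a library. Counting error was therefore small. Its largest coefficient of variation was 3.18%, for mt-atp8, while the spread between libraries of a group reached 16.7%, for mt-nd3.

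The 4 libraries with replicate number 2 stood apart for some members. In each of the 4 groups, replicate 2 had the lowest level of mt-co1, mt-co2, mt-co3, mt-nd3 and mt-cyb. These 5 mRNAs, a set formed after their values were seen, deviated from their group mean by -9.96% to -15.4% on average in replicate 2, a log2 deviation of -0.15 to -0.24. The other 8 mRNAs deviated in those same libraries by -0.07 to 0.00 on average on the log2 scale. Their single libraries ran from -0.17 (mt-atp8) to 0.07 (mt-nd2) there, and mt-nd1 and mt-atp8 were below their group mean in all 4. Across the 12 libraries, deviations from the group means correlated with r of 0.94 to 0.99 among the 10 pairs within the 5, 0.42 to 0.95 among the 28 pairs within the other 8, and -0.09 to 0.77 among the 40 pairs between the sets. These coefficients describe points that share libraries, depth and scaling. The 5 were grouped by these same deviations, so a higher r within them than between the sets follows from the grouping and is no separate result. The 5 had the widest spread within groups, which bears on the calls of these 5 below.

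**Figure D1:**
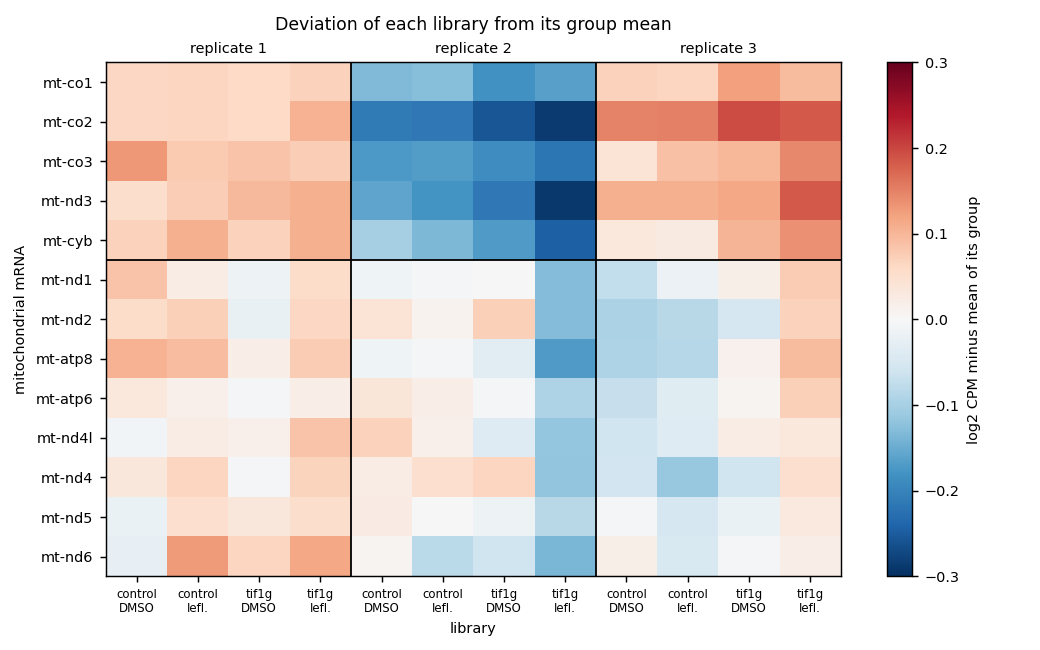
Log2 deviation of each library (columns, ordered by replicate number) from the mean of its group, for the 13 mitochondrial mRNAs (rows), as colour from -0.3 (blue) to 0.3 (red). The upper 5 rows, grouped after their values were seen, are blue in all 4 libraries with replicate number 2. The lower 8 rows averaged between -0.07 and 0.00 there, with single libraries from -0.17 to 0.07.

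Together the 13 mRNAs took about 1% of all counts, and least in control embryos in DMSO. Their share was 0.823%, 0.763% and 0.841% in the 3 control DMSO libraries (mean 0.809% ± 0.0408, SD, n = 3), and 1.04%, 0.945% and 1.01% in control leflunomide (0.998% ± 0.0477). In tif1γ morpholino embryos it was 1.09%, 0.969% and 1.09% in DMSO (1.05% ± 0.0679). In tif1γ embryos with leflunomide it was 1.11%, 0.944% and 1.12% (1.06% ± 0.0993). Each control DMSO library was below every library of the other 3 groups, and those 3 groups overlapped one another. The exact binomial 95% interval of a library's share was at most 0.00391 percentage points to either side, for counting error only. Values on the TMM scale, which sets libraries to a common level over most genes, gave 8563 ± 476, 9637 ± 583, 10550 ± 794 and 10328 ± 1043 summed CPM in the same order of groups.

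**Figure D2:**
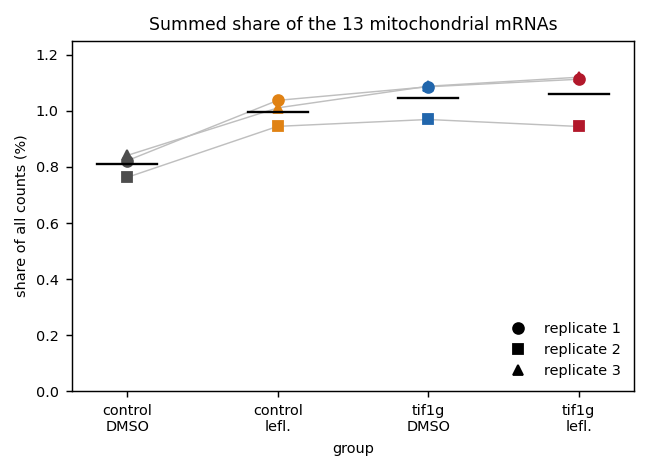
Summed share of all counts (y axis, percent, from 0) taken by the 13 mitochondrial mRNAs in each of the 12 libraries, with symbols for the replicate number, thin lines joining equal numbers and bars for the mean of 3. The control DMSO libraries, at 0.763% to 0.841%, lie below the other 9 libraries, and replicate 2 is lowest in every group.

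After the tif1γ morpholino in DMSO, mitochondrial mRNAs of complexes I, IV and V were higher, complex IV through mt-co1 alone, while mt-cyb of complex III did not pass. Of the 13, 9 rose and 0 fell against control DMSO, where 15.6% of the 21400 genes tested rose and 17.2% fell. With library totals in place of TMM the genes called over the whole table shifted from 3330 higher and 3682 lower to 4306 and 2888, and 10 of the 13 rose. The median log2 fold change of the 13 was 0.32, against 0.00 over all genes tested. All 3 tif1γ libraries were above all 3 controls for 10 of the 13, as for 21.7% of all genes tested.

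Among complex I mRNAs, mt-nd4, which encodes a core proton-pumping membrane subunit, moved furthest. Its level was 405, 402 and 380 CPM in the control DMSO libraries and 559, 587 and 539 CPM in the tif1γ DMSO libraries. The groups did not overlap, and the log2 fold change was 0.50 ± 0.06 (adjusted p = 4.8e-06), or 1.42-fold. The pumping subunit mRNA mt-nd2 went from 199, 197 and 179 CPM to 249, 266 and 244 CPM (0.40 ± 0.06, adjusted p = 9.81e-05), again without overlap. The largest complex I mRNA, mt-nd5, rose from 1008, 1040 and 1019 CPM to 1340, 1296 and 1291 CPM (0.36 ± 0.05, adjusted p = 1.36e-05). The rest of complex I bar one rose by less, mt-nd4l by 0.34 ± 0.06, mt-nd1 by 0.32 ± 0.06 and mt-nd6 by 0.23 ± 0.06. The mt-nd6 call was lost without tif1γ DMSO replicate 1 (adjusted p = 0.0575) and without replicate number 1 or 3 in all groups (0.0524 and 0.0803).

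The exception in complex I was mt-nd3, whose product lies at the junction of the membrane and peripheral arms. It stood at 216, 187 and 225 CPM in control DMSO and at 225, 181 and 227 CPM in tif1γ DMSO. The groups overlapped fully, with a log2 difference of 0.01 ± 0.14 (adjusted p = 0.954). With the replicate block the difference was 0.01 ± 0.05 (adjusted p = 0.883), and it lay between -0.06 and 0.11 over all alternatives tried.

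Both mitochondrially encoded ATP synthase mRNAs rose. For mt-atp6 the libraries went from 266, 267 and 248 CPM to 341, 342 and 345 CPM, a log2 change of 0.40 ± 0.05 (adjusted p = 1.29e-05). For mt-atp8 they went from 39.2, 36.1 and 34.1 CPM to 48.5, 46.8 and 48.3 CPM (0.39 ± 0.08, adjusted p = 0.000734). No library of one group reached the other for either gene. The pair overlap each other in the RefSeq gene table, as do mt-atp6 and mt-co3, mt-nd4l and mt-nd4, and mt-nd5 and mt-nd6. The sources used here do not say how reads in the overlaps, or reads shared with nuclear copies of mitochondrial DNA, were counted, so values of these neighbours are not fully separate.

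The mRNAs with the wide replicate spread gave calls that depended on the fit. For mt-co1, the catalytic subunit of complex IV, the libraries were 3093, 2701 and 3108 CPM in control DMSO and 3787, 3205 and 3956 CPM in tif1γ DMSO. The groups did not overlap, the change was 0.30 ± 0.09 (adjusted p = 0.0292), and with the block 0.30 ± 0.04 (adjusted p = 9.62e-08). That call was lost without control DMSO replicate 1 (adjusted p = 0.0709) or 2 (0.109), without tif1γ DMSO replicate 1 (0.0858) or 3 (0.0939), without replicate number 1 (0.212) or 3 (0.115), and with no filter on low counts (0.0731). The change of mt-co2 was also 0.30, with an SE of 0.17 (adjusted p = 0.212), that of mt-cyb 0.28 ± 0.11 (0.066), and that of mt-co3 0.21 ± 0.12 (0.213). Within each of the 3 replicate numbers, the tif1γ DMSO library was above the control DMSO library for mt-co1, mt-co2, mt-co3 and mt-cyb. For mt-nd3, which also had the wide spread, it was below in number 2, at 181 against 187 CPM. The share of all genes tested with such an order was not counted. With the replicate block mt-co2 (adjusted p = 2.6e-07), mt-cyb (3.84e-06) and mt-co3 (9.33e-05) were called as well, which made 12 of 13 against 19.9% of all genes. Without replicate number 2 the same count, 12, was reached with no block, where 2211 genes rose over the whole table. The count was 7 without replicate number 1, without number 3 and without tif1γ DMSO replicate 1. In those settings 2277, 2428 and 2919 genes rose over the whole table.

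**Figure D3:**
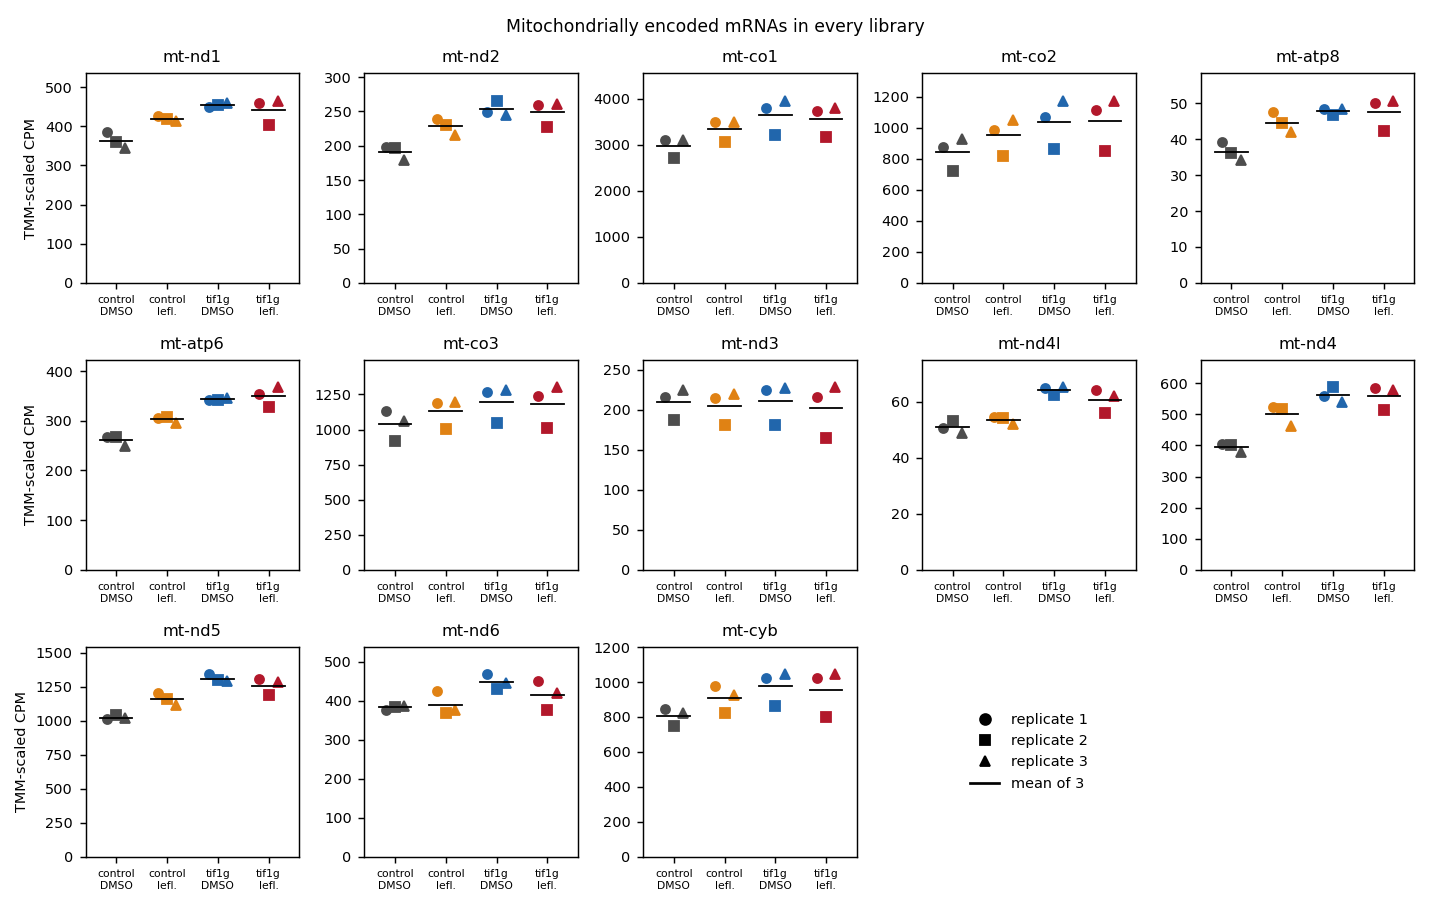
TMM-scaled CPM (y axes, from 0, a separate scale for each gene) of the 13 mitochondrial mRNAs in every library, by group (x axis), with symbols for the replicate number and bars for the mean of 3. For mt-nd4 the control DMSO libraries lie at 380 to 405 CPM and the tif1γ DMSO libraries at 539 to 587 CPM, while mt-nd3 is level across the 4 groups and replicate 2 is low in its panel.

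Leflunomide in control embryos was also followed by higher mitochondrial mRNAs. Of the 13, 6 rose and 0 fell against control DMSO, where 8.87% of all genes rose and 13.1% fell. These were mt-nd1, mt-nd2, mt-nd4 and mt-nd5 of complex I and mt-atp6 and mt-atp8 of complex V, and for all of these 6 the groups did not overlap, as for 17.3% of all genes in the same direction. The median change of the 13 was 0.18, against 0.02 over all genes. Scaling by library totals alone moved the median of all genes to 0.16 and that of the 13 to 0.31, and turned 1899 higher and 2796 lower genes into 3538 and 1220. With the replicate block 10 of the 13 rose, against 13.5% of all genes.

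The mt-nd4 libraries were at 523, 518 and 462 CPM in control leflunomide, all above the 380 to 405 CPM of control DMSO. The change was 0.34 ± 0.06 (adjusted p = 0.000611). For mt-atp8 the leflunomide libraries were at 47.5, 44.4 and 42.0 CPM (0.29 ± 0.08, adjusted p = 0.011), and for mt-atp6 at 306, 307 and 295 CPM (0.22 ± 0.05, adjusted p = 0.00586). The changes of mt-nd2, mt-nd1 and mt-nd5 were 0.25 ± 0.06, 0.21 ± 0.06 and 0.18 ± 0.05 (adjusted p = 0.00847, 0.0131 and 0.0101). The 4 added by the block were mt-co1, mt-co2, mt-cyb and mt-co3, at 0.17, 0.18, 0.17 and 0.12 (adjusted p with the block 0.000644, 0.000965, 0.00276 and 0.0193).

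Complex I was again not uniform. The mt-nd3 libraries in control leflunomide were at 215, 180 and 220 CPM, a difference of -0.03 ± 0.14. The mt-nd6 mRNA, the one member that lies on the opposite strand, was at 377, 385 and 388 CPM in control DMSO and at 425, 368 and 377 CPM in control leflunomide. It overlapped, with a difference of 0.03 ± 0.06 (adjusted p = 0.832), and mt-nd4l differed by 0.08 ± 0.06 (adjusted p = 0.431). The count of 6 depended on single libraries. It was 3 without control DMSO replicate 3, 2 without control leflunomide replicate 1, and 4, 3 and 3 without replicate numbers 1, 2 and 3. Over the whole table the genes called higher also became fewer, from 1899 to 1481, 1247, 870, 720 and 1259 in the same order. The mt-nd4 call held in all of these settings, with an adjusted p of at most 0.0133.

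In the presence of leflunomide, fewer mitochondrial mRNAs were called after the morpholino, and the difference from the effect in DMSO, tested as an interaction, passed for 0 of the 13 in the fit of group means (adjusted p by edgeR of 0.13 to 0.975). Of the 13, 2 rose and 0 fell in tif1γ leflunomide against control leflunomide, where 23.8% of all genes were called in either direction and 2564 of the 21400 rose, a share close to that of the 13. These were mt-atp6, at 354, 328 and 367 CPM against 306, 307 and 295 CPM (0.21 ± 0.05, adjusted p = 0.00661), and mt-nd4l, at 64.4, 56.0 and 62.0 CPM against 54.4, 54.1 and 52.2 CPM (0.18 ± 0.06, adjusted p = 0.0395). Groups did not overlap for these 2 and overlapped for the other 11, while 20.2% of all genes lay fully above. The median of the 13 was 0.10.

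With the replicate block mt-co2 (adjusted p = 0.0127), mt-nd4 (0.00951) and mt-nd5 (0.0281) joined them, which made 5 against 17.0% of all genes. The mt-nd4l call was lost with library totals (adjusted p = 0.0567), with no filter (0.0606), with only the groups compared (0.0599), and without control leflunomide replicate 1, 2 or 3 (0.0742, 0.0818 and 0.124) or tif1γ leflunomide replicate 1 or 3 (0.179 and 0.118). Without replicate number 1 or 3 neither call was made, with adjusted p of 0.0791 and 0.134 for mt-atp6 and of 0.29 and 0.262 for mt-nd4l. Without tif1γ leflunomide replicate 2 the count was 4, and without replicate number 2 it was 3. In those settings 2017 and 1504 genes rose over the whole table, against 2564 with all libraries. Without replicate numbers 1 and 3, where the count was 0, 1572 and 1503 genes rose.

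Leflunomide in tif1γ morpholino embryos gave no call among the 13, at a background of 0.617% of all genes called. By edgeR 0 of the 13 had an unadjusted p under 0.05, while 2981 of the 21400 genes tested did. DESeq2 and the replicate block called 0 of the 13 as well, and DESeq2 called 539 genes in all. All 13 overlapped between the groups, while 19.2% of all genes did not, and the block called 7.09% of all genes. The median change was -0.03, and the changes ran from -0.11 for mt-nd6 to 0.03 for mt-atp6. For mt-nd4 the libraries were at 585, 514 and 579 CPM, a difference of -0.01 ± 0.06 (adjusted p = 0.988) from tif1γ DMSO. Replicate 2 of tif1γ leflunomide was the lowest library of its group for each of the 13.

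**Figure D4:**
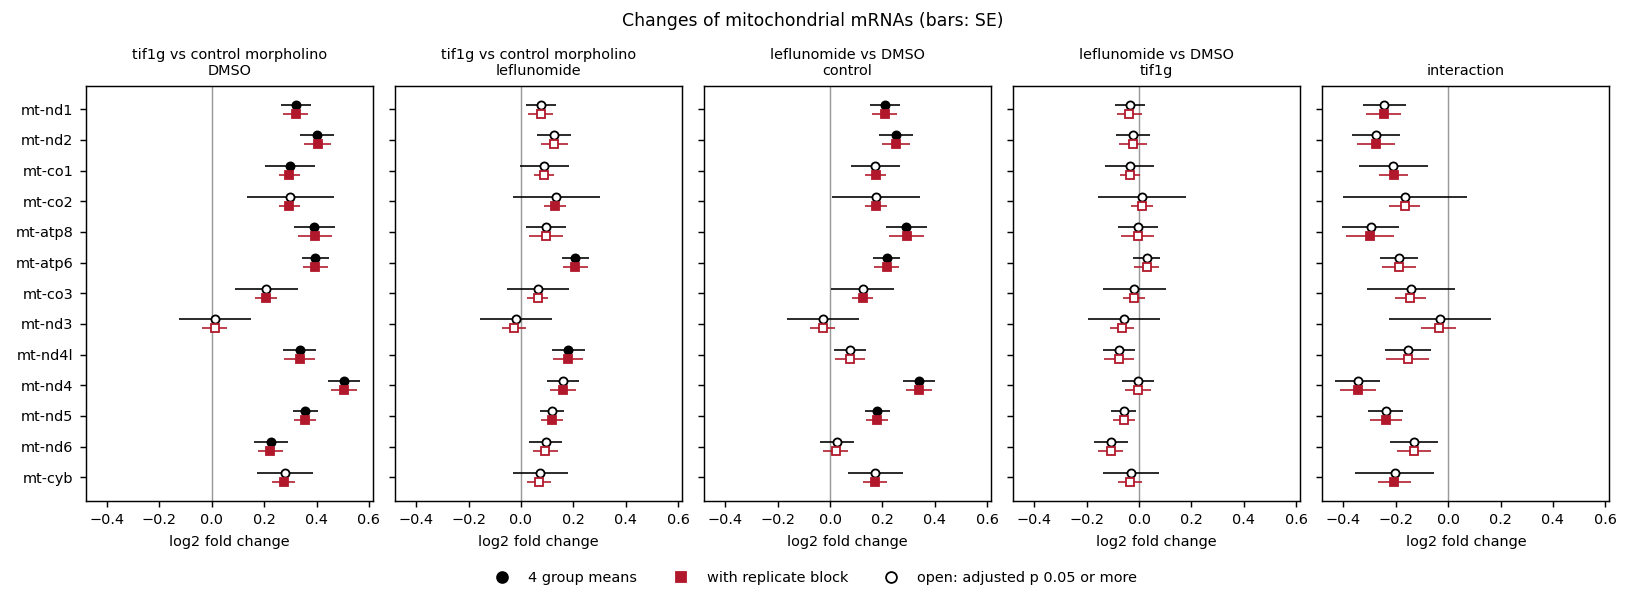
Log2 fold change with SE (x axis) of each mitochondrial mRNA (rows) in the 4 pairwise comparisons and in their interaction, from the fit of group means (black) and from the fit with the replicate block (red), filled where the adjusted p was under 0.05. Most changes lie to the right of 0 in the panels for the morpholino in DMSO and for leflunomide in control embryos, near 0 for leflunomide in tif1γ embryos, and to the left of 0 for the interaction, and mt-nd3 lies near 0 in each.

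The difference between the morpholino effects in leflunomide and in DMSO was tested as an interaction. It was below 0 for all 13 mRNAs, with a median of -0.20 against 0.01 over all genes, but the sign of mt-nd3 turned in some alternatives (-0.13 to 0.10). In the fit of group means 0 of the 13 were called and 0% of all genes, with 6 of the 13 and 2560 of all genes at an unadjusted p under 0.05. DESeq2 called 1 of the 13, mt-nd4, and 278 genes in all. With the replicate block 7 of the 13 were called lower, against 1.62% of all genes called lower. They were mt-nd4 (-0.34 ± 0.07, adjusted p = 0.00436), mt-nd5 (-0.24 ± 0.06, 0.0156), mt-co1 (-0.21 ± 0.06, 0.0217), mt-nd2 (-0.28 ± 0.07, 0.0244), mt-nd1 (-0.25 ± 0.07, 0.0251), mt-cyb (-0.21 ± 0.06, 0.0477) and mt-atp8 (-0.30 ± 0.09, 0.0488). In the setting without replicate number 2, which has no block, 0 of the 13 were called. There, and in every other setting that left out libraries, 0 genes were called over the whole table. Nuclear subunit mRNAs of the same complexes went the other way in the interaction. With the block 5 of 37 were called higher in complex I and 2 of 9 in complex III. In complexes IV and V it was 6 of 18 and 8 of 17, with 0 lower in any of these. Of all genes 3.37% were called higher there. In the fit of group means 0 were called in these lists, with medians of 0.24, 0.21, 0.33 and 0.33. The pairwise comparisons share groups, and the tif1γ change in DMSO and the leflunomide change in control embryos were both measured from the same 3 control DMSO libraries, so their likeness is no separate result.

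The make-up of the pool does not depend on scaling to other genes. Complex IV mRNAs made up 56.5% ± 2.07 of the summed CPM of the 13 in control DMSO, 56.3% ± 1.96 in control leflunomide, 55.6% ± 2.37 in tif1γ DMSO and 56.0% ± 0.866 in tif1γ leflunomide. Complex I took 30.6% to 31.4% on average over the groups. The share of mt-nd3 was 2.43%, 2.33% and 2.56% in control DMSO and 2.14%, 2.01% and 2.23% in control leflunomide. It was 2.06%, 1.88% and 2.05% in tif1γ DMSO and 1.99%, 1.80% and 2.07% in tif1γ leflunomide. The control DMSO libraries lay above those of every other group. The share of mt-nd6 was 4.24%, 4.80% and 4.41% in control DMSO and lower in each library of control leflunomide, at 4.22%, 4.10% and 3.82%, but it overlapped with tif1γ DMSO. No other member's share separated all libraries of one group from all of another in the 4 pairwise comparisons. Within replicate numbers, the share of mt-nd4 was higher in tif1γ DMSO than in control DMSO each time, at 5.13% against 4.56%, 6.09% against 5.01% and 4.84% against 4.33% for numbers 1 to 3. The shares of mt-nd2, mt-atp6, mt-atp8 and mt-nd5 were also higher, and those of mt-co3 and mt-nd3 lower, within each number. For mt-nd5 the gap was small in number 3, at 11.61% against 11.6%. Shares of one pool are not independent of one another, and they were not tested.

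Those nuclear-encoded subunits of the same complexes that were called after the morpholino in DMSO were all lower, though most did not pass. In tif1γ DMSO against control DMSO, 16 of 37 tested complex I mRNAs fell and 0 rose (median -0.23), as did 5 and 0 of 9 of complex III (-0.23), 5 and 0 of 18 of complex IV (-0.20) and 9 and 0 of 17 of complex V (-0.24), against 17.2% of all genes. Complex II, which is wholly nuclear, had 0 calls among 4 (median -0.10) and 0 with the replicate block. It had 0 at an unadjusted p under 0.05, against 9039 of the 21400 genes tested. Examples were the accessory subunit mRNA ndufa10 (-0.37 ± 0.06), the Rieske iron-sulfur protein mRNA uqcrfs1 (-0.83 ± 0.06), cox6b2 of complex IV (-0.34 ± 0.06) and atp5f1e of ATP synthase (-1.10 ± 0.10). With the block 19 of 37 fell in complex I and 6 of 9 in complex III. It gave 9 of 18 in complex IV and 12 of 17 in complex V, against 22.3% of all genes with the block. In leflunomide the morpholino gave medians above 0 in all 5 nuclear lists, from 0.03 in complex III to 0.17 in complex II. Complex V then had 5 higher and 1 lower of 17, where 2564 of the 21400 genes tested rose and 2530 fell. Its higher count ran from 1 to 7 over the alternatives. Complex I had 2 higher and 3 lower of 37, complex II 1 and 0 of 4, complex III 0 and 2 of 9, and complex IV 1 and 0 of 18. Each of these complexes also changed a count in some alternatives.

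Leflunomide in control embryos was followed by lower nuclear subunits in every complex. In complex I 26 of 37 fell and 1 rose (median -0.40), in complex II 3 of 4 fell (-0.38), in complex III 8 of 9 (-0.41), in complex IV 10 of 18 (-0.40) and in complex V 14 of 17 (-0.46), against 13.1% of all genes. The complex IV subunit mRNA cox7c fell by 0.63 and the ATP synthase subunit mRNA atp5mf by 0.60 on the log2 scale. With the block 34, 3, 8, 11 and 17 fell in complexes I to V, against 17.8% of all genes. Library totals alone left 11 in complex I, 1 in complex II, 7, 9 and 10 in the others, where 1220 genes fell over the whole table. The 1 rise in complex I was lost with only the groups compared and in most settings that left out a library.

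Calls in the nuclear lists depended on single libraries, as did those over the whole table. For the morpholino in DMSO, the complex I count was 9 without control DMSO replicate 1 and 9 without tif1γ DMSO replicate 2. The complex V count was 4 and 3 in those settings. Without replicate number 1 the counts of complexes I, III, IV and V were 7, 3, 3 and 4. Without number 2 complexes I and V had 8 and 4, and without number 3 complex IV had 8. Complexes I and IV each had 1 called higher without control DMSO replicate 3 and again without number 3. In those settings 2876 and 2428 genes rose over the whole table. The whole table had 2492, 2509 and 2888 genes lower without numbers 1, 2 and 3. For leflunomide in control embryos, complex I had 17 without control DMSO replicate 1, 7 without number 1 and 10 without number 2. Complex II had 1 without number 1 or 2, and complex V had 9 without number 1. The whole table had 2301 genes lower without control DMSO replicate 1, 1433 without number 1 and 1394 without number 2, against 2796.

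The ratio of mitochondrial to nuclear subunit mRNA was lowest in control DMSO for each complex. Summed over 7 mitochondrial and 40 nuclear genes of complex I, it was 2.58 ± 0.135 in control DMSO, 3.76 ± 0.282 in control leflunomide, 3.73 ± 0.168 in tif1γ DMSO and 3.88 ± 0.283 in tif1γ leflunomide (SD, n = 3). For complex IV the means were 6.27, 9.65, 9.27 and 10.1 in that order, for complex III 1.14, 1.70, 1.73 and 1.90, and for complex V 0.220, 0.364, 0.338 and 0.391. In all 4 complexes each control DMSO library lay below every library of the other groups. In each, the mean mitochondrial sum was lowest and the mean nuclear sum highest in control DMSO. The low ratio there follows from both and is no separate result. These sums follow read counts and not molecules, since CPM is not corrected for gene length.

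**Figure D5:**
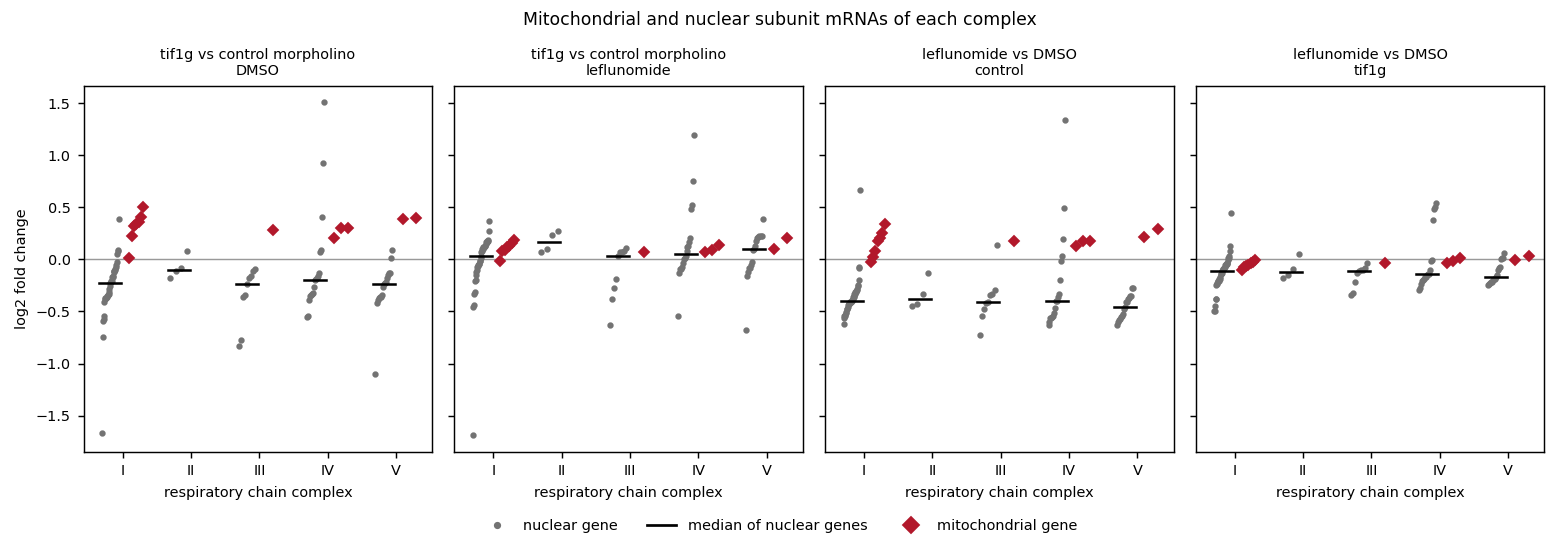
Log2 fold change (y axis) of the nuclear (grey) and mitochondrial (red) subunit mRNAs of each respiratory chain complex (x axis) in the 4 pairwise comparisons, with a bar at the median of the nuclear genes. In the morpholino comparison in DMSO and the leflunomide comparison in control embryos the nuclear medians lie between -0.46 and -0.10 while most mitochondrial mRNAs lie above 0.

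Of 47 tested genes for mitochondrial transcription, RNA processing, RNA decay and translation, 9 rose and 3 fell after the morpholino in DMSO (median 0.08), where 15.6% of all genes rose and 17.2% fell, so the count that rose was near the background. With library totals 14 rose, where 4306 of the 21400 genes tested rose. With the block 6 fell, against 22.3% of all genes. Without control DMSO replicate 3 there were 5 that fell, where 3272 genes fell over the whole table. Among them trit1, which encodes a tRNA-modifying enzyme, rose by 0.70 ± 0.06, and fastk, of a family of mitochondrial RNA-binding proteins, by 0.57 ± 0.06. The hsd17b10 mRNA, for a subunit of the enzyme that cuts the 5′ ends of mitochondrial tRNAs, went from 13.6 to 21.4 CPM (0.65 ± 0.10). The mRNA of the RNA granule protein grsf1 fell by 0.45.

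Leflunomide in control embryos was followed by lower levels of 18 of the 47 and higher levels of 0 (median -0.26), against 13.1% and 8.87% of all genes, with 10 lower and 2 higher under library totals. The hsd17b10 mRNA was then at 9.0 CPM (-0.60 ± 0.10), grsf1 changed by -0.53 ± 0.06, and tufm, for the mitochondrial elongation factor Tu, by -0.51 ± 0.06. Without replicate number 1 or 2 the count was 9 or 10, where 1433 or 1394 genes fell over the whole table. Of 75 mitochondrial ribosomal protein mRNAs 55 fell and 0 rose with leflunomide (median -0.37), against the same 13.1% and 8.87%, with 28 lower under library totals, 23 without number 1 and 30 without number 2. After the morpholino in DMSO 15 fell, near the 17.2% of all genes, and 4 rose, against 15.6% (median -0.08), with 2 rising without control DMSO replicate 3, tif1γ DMSO replicate 2 or number 2 or 3. The mrps9 mRNA fell there by 1.20 and mrpl44 by 0.50 on the log2 scale.

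Genes for mitochondrial DNA replication and nucleotide supply gave 8 lower and 2 higher of 23 tested after the morpholino in DMSO, against 17.2% and 15.6% of all genes. With leflunomide in control embryos 5 were lower and 0 higher, against 13.1% and 8.87% (10 lower with the block, against 17.8%). The ribonucleotide reductase mRNA rrm2 (ENSDARG00000020711) fell by 0.79 and its stress-linked relative rrm2b by 0.41 after the morpholino. Without replicate number 1 the 8 became 5, where 2492 genes fell over the whole table. The 2 higher became 1 without control DMSO replicate 1, tif1γ DMSO replicate 2 or number 1, and 0 without number 3. The pyrimidine nucleotide carrier mRNA slc25a33 changed by -0.45 ± 0.07 with leflunomide (adjusted p = 0.000221). Of 20 genes for mitochondrial biogenesis, fission, fusion and mitophagy, 4 rose and 4 fell after the morpholino in DMSO, both near the 15.6% and 17.2% of all genes. Each count was 2 without control DMSO replicate 2 or number 1 or 2. Those that rose were also 2 without control DMSO replicate 3 or number 3, and those that fell were also 2 without tif1γ DMSO replicate 1, with only the groups compared and with library totals. The coactivator mRNA ppargc1b rose by 0.51 ± 0.08, and the mRNA of nrf1, a transcription factor for respiratory chain genes, changed by -0.37 ± 0.06. With leflunomide in control embryos 5 of the 20 fell and 1 rose, against 13.1% and 8.87% of all genes, with 3 lower without control leflunomide replicate 2 or number 2 and 3 lower and 3 higher under library totals. Among those lower was the nuclear receptor mRNA esrra (-0.45 ± 0.07), while the 1 rise was lost without control DMSO replicate 2, control leflunomide replicate 1 or 2, or any replicate number.

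Other transcripts differed between the same groups, and their part in the mitochondrial values was not tested. Summed over 18 markers of the yolk syncytial layer, the extra-embryonic layer over the yolk, the control DMSO libraries had 9903 to 10734 CPM, those of control leflunomide 7666 to 8476, of tif1γ DMSO 6845 to 7558 and of tif1γ leflunomide 6532 to 7093. The 18 markers of the enveloping layer, the outer epithelium, summed to 18401 to 20059, 15984 to 16871, 15352 to 16419 and 16156 to 16330 CPM. The 17 maternal transcripts summed to 52.6 to 59.2, 45.3 to 50.1, 74.9 to 77.7 and 68.9 to 74.3 CPM. Of the 16 tested, 3 rose and 0 fell after the morpholino in DMSO, against 15.6% and 17.2% of all genes. Among these 3, grip2 went from 11.9 to 19.3 CPM and zp3b from 14.1 to 20.3 CPM. The 11 germ plasm markers summed to 50.3 to 64.5, 47.9 to 68.1, 59.6 to 70.3 and 53.1 to 72.6 CPM. None of the markers was at 0 in all libraries. As sums, both layers were highest in control DMSO, where mitochondrial mRNAs were lowest. The nuclear RNA malat1 was at 2906 to 3556, 4882 to 5451, 4017 to 4381 and 4719 to 5355 CPM in that order, so that it too was lowest in control DMSO (0.71 ± 0.07 with leflunomide, adjusted p = 2.81e-05, and 0.39 ± 0.07 with the morpholino, adjusted p = 0.000625). Single markers of the 2 layers did not all move with the sums. After the morpholino in DMSO 10 of 17 tested yolk syncytial layer markers fell and 2 rose. Of 18 enveloping layer markers 12 fell and 2 rose, against 17.2% and 15.6% of all genes. With leflunomide in control embryos 12 of the 17 fell and 0 rose. Of the 18, 6 fell and 2 rose, against 13.1% and 8.87%, and the 6 ran from 3 to 11 over the alternatives.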

How the data were processed

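Directional libraries of rRNA-depleted total RNA from whole embryos were sequenced, and the authors deposited 1 table of counts per gene for all 12 libraries, raw and not normalized. The submitters' processing notes name FastQC, cutadapt, TopHat2 2.0.11, Cufflinks 2.2.1, HTSeq and the genome build GRCz11. The sources used here do not give the strand setting or the handling of reads that map to several places. Totals ran from 27574593 to 32088082 counts a library, so that precision was set by the spread between libraries, with a biological coefficient of variation of 0.113 in the fit. Replicates of a group differed beyond sampling noise (chi-square per degree of freedom 7.09 to 15.0).

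Symbols came from the gene name table, which named 29201 of the 32520 IDs. The RefSeq gene table, of another assembly, was used for names and neighbours only. Of 30339 genes with a count, 21400 passed edgeR's filter on low counts. Counts were scaled by TMM and tested with edgeR 4.0.16 (limma 3.58.1, R 4.3.3) by a robust quasi-likelihood fit of 4 group means, two-sided, with Benjamini-Hochberg adjustment over all genes tested and calls at an adjusted p under 0.05. The SE of a log2 fold change was its size divided by the root of the F statistic. Figures were drawn with matplotlib 3.10.9.

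Same-numbered libraries of different groups deviated together in 18 of 18 pairs of libraries (r of deviations from the group means 0.198 to 0.363). The 36 pairs of different numbers had r of -0.234 to -0.0259. Deviations were taken from each group's own mean, so the r of different numbers is no separate result. The series text says that embryos of a clutch were split between treatments, and the labels do not say that a number marks a clutch. The replicate number was fitted as a block as an alternative. Other alternatives were DESeq2 1.42.0 with its Wald test, other scalings, no filter, only the groups compared, and leaving out libraries. Nothing in the labels says that libraries came from separate parents, so p-values measure the spread between these libraries.

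The members and the 14 gene lists were chosen with earlier results of these data known. Besides the members, genes were eligible for naming if they had one of the 4 smallest p in their list after the morpholino in DMSO or one of the 2 smallest with leflunomide in control embryos, and of these the text names some whose printed call held in every alternative.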

Additional observations from a re-analysis of the deposited data

Results flagged for a closer look

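The difference between the morpholino effects in leflunomide and in DMSO passed for 7 mitochondrial mRNAs in the fit with the replicate block (edgeR quasi-likelihood test). On the log2 scale it was -0.34 for mt-nd4, -0.30 for mt-atp8, -0.28 for mt-nd2, -0.25 for mt-nd1, -0.24 for mt-nd5, -0.21 for mt-co1 and -0.21 for mt-cyb. The fit of group means gave nearly the same sizes, from -0.20 to -0.35 for these genes, with adjusted p of 0.13 to 0.655.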

How the results depend on the processing

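Over the 13 mRNAs and 5 comparisons, 1348 of 1417 outcomes under an alternative kept their call, 32 gained one and 37 lost one, and no called change turned its sign. Beyond the gains described with the results, the replicate block changed no call of a mitochondrial mRNA. The count of mitochondrial mRNAs that rose after the morpholino in leflunomide, 2 as reported, was 1 with library totals, no filter or only the groups compared and 5 with the block. With leflunomide in control embryos it was 10 with the block. For the interaction 1 fell with DESeq2 and 7 with the block.

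Over all genes, leflunomide in control embryos gave 3538 higher and 1220 lower with library totals, and 2899 higher with the block. In tif1γ embryos it gave 160 and 379 with DESeq2, 578 and 940 with the block, 17 and 23 with only the groups compared, and 51 and 15 with library totals, against 41 and 91. The interaction gave 191 and 87 with DESeq2, 721 and 346 with the block, 3 lower with library totals and 1 lower with no filter, against 0 and 0. The cause of these moves was not tested. The TMM-scaled sum of the 13 in control DMSO, as percent, was 0.856.

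Leaving out a library or a replicate number gave 2211 to 3306 genes and 7 to 12 mitochondrial mRNAs higher after the morpholino in DMSO. After the morpholino in leflunomide it gave 1503 to 2676 genes higher, 1503 to 2613 lower and 0 to 4 mitochondrial mRNAs higher. With leflunomide in control embryos it gave 720 to 1850 higher, 1394 to 2791 lower and 2 to 6 mitochondrial mRNAs. In tif1γ embryos it gave 0 to 57 higher and 0 to 151 lower.

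Totals without the mitochondrial rRNA and tRNA rows were not run, since the name table does not name those rows, and the interaction uses all 4 groups, so that a fit of fewer groups was not run. The spread of mt-co2 between libraries gave its change after the morpholino in DMSO an SE of 0.17 in the fit of group means.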
